A study of Mus musculus with 10 samples.

Results

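The transcriptome of the pituitary intermediate lobe (IL) was compared between p27-/- mice that had lost 1 copy of Sox2 (p27-/-;Sox2+/-) and p27-/- mice with both copies. The comparison takes in 6 of the 10 samples of the series, 3 of each genotype, chosen by the genotype in their labels. Bulk RNA of the dissected IL was sequenced, with 1 library per mouse, and all the mice were 2 to 3 months old. Both groups carry the same deletion of p27, the Cdkn1b tm1Mf allele per the study's methods, on a mixed background with males and females, and by their labels they differ only in the Sox2 genotype. The methods list a GFP and a floxed Sox2 allele, but which of them these mice carried, and therefore which part of the gene is missing, is not given in the sources used here. The other 4 samples were wild type (WT), and their values are given beside those of the mutants for reference.

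P27, the product of Cdkn1b, binds cyclins and their kinases and holds cells out of the cycle, and mice without it develop tumors of the IL. The IL is made of melanotrophs, which cleave the hormone precursor POMC to melanocyte stimulating hormone, and is flanked by a layer of stem cells. SOX2 is a DNA-binding HMG-box transcription factor associated with the stem cell state. In the pituitary it is found in stem cells and, at lower levels, in melanotrophs, per the study. The comparison asks which transcripts of the p27-/- IL depend on the dose of Sox2.

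The samples carried the markers of the IL. Pomc, the melanotroph hormone precursor, was at 18.35, 18.41 and 18.54 on the log2 scale in p27-/-;Sox2+/- samples, at 18.57, 18.98 and 18.76 in p27-/- samples and at 19.0, 18.28, 18.57 and 18.0 in WT samples. Pax7 and Tbx19, transcription factors of melanotroph and POMC lineage identity, had values of 11.97, 11.90 and 11.52 and of 10.90, 10.87 and 10.80 in p27-/-;Sox2+/- samples, against 11.69, 11.93 and 11.89 and 10.67, 10.82 and 10.82 in p27-/- samples. Cdkn1b transcripts were still counted in both mutants, at 8.10, 7.73 and 7.83 in p27-/-;Sox2+/- and 8.27, 8.04 and 8.22 in p27-/- samples, and were between 8.39 and 8.85 in WT (log2 difference -0.29, 95% confidence interval -0.57 to -0.01, adjusted p = 0.731 between the mutants). RNA of neighboring tissue was present and uneven. The centred mean of 8 posterior lobe markers ranged from -0.49 to 0.90 in p27-/-;Sox2+/- and from -0.12 to 0.22 in p27-/- samples, the high value being that of p27-/-;Sox2+/- replicate 3, and 4 of the 8 were higher and 4 lower in the compound mutant. For 3 oligodendrocyte genes the ranges were -0.55 to 0.82 and -0.03 to 0.16, highest in the same sample, and for 3 red blood cell genes -0.96 to 0.64 and -0.81 to 1.35. For 10 anterior lobe markers, such as Gh, the growth hormone gene, the ranges were -0.42 to 0.34 and -0.51 to 0.68, for 8 endothelial markers -0.12 to 0.28 and -0.17 to 0.08, for 8 fibroblast and mural markers -0.32 to 0.33 and -0.30 to 0.35, and for 24 macrophage and microglia genes -0.17 to 0.13 and 0.01 to 0.06. Single anterior lobe genes varied more than the list mean. Prl, the prolactin gene, was at 12.5, 12.9 and 14.3 in p27-/-;Sox2+/- and 16.3, 11.4 and 14.4 in p27-/- samples. In WT, Prl was at 13.1, 17.5, 12.5 and 11.4. No member of these lists passed the test between the mutants. For each list the ranges of the list mean overlapped between the groups, although single members, such as Cdh5, did not. Xist was high in 2 of the 3 samples of each mutant group. In bulk tissue, fewer cells of a type and less RNA per cell cannot be told apart.

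The values are log2 values that the authors normalized, with 17268 genes of at least 10 on the linear scale tested by limma out of 29527 in the table. The read depth behind a value is not known from the table, and its number of replicates limits the precision. The Benjamini-Hochberg adjusted p-value was under 0.05 in 25 genes, of which 14 were higher in p27-/-;Sox2+/- samples and 11 were lower. These are 0.145% of the tested genes, 0.0811% in the higher and 0.0637% in the lower direction. The 25 differences had a median size of 0.74 and reached from 0.53 to 1.30 on the log2 scale, that is, from 1.45-fold to 2.46-fold. Across all tested genes the median difference was 0.00, with 5% of genes below -0.25 and 5% above 0.26, and the 95% confidence interval of a gene extended 0.27 to either side at the median. Without adjustment, 598 genes (3.46%) were higher and 550 (3.19%) lower at a p-value under 0.05. All 3 p27-/-;Sox2+/- samples lay above all 3 p27-/- samples in 1297 (7.51%) of the tested genes and below them in 1338 (7.75%), and this was so for each of the 25. The number of genes past the threshold depended on each of the 6 mutant samples. Without p27-/-;Sox2+/- replicates 1, 2 and 3 it was 0, 0 and 2 (limma, with 977, 931 and 955 genes at an unadjusted p under 0.05), and without p27-/- replicates 1, 2 and 3 it was 4, 0 and 0 (with 1030, 1030 and 716). The 2 genes left were Ccnd2 and Ido2, and the 4 were Ido2, Pde3a, Flrt3 and Lsamp. Without WT replicate 1 it was 41 and without WT replicate 4 it was 10. Each of the 25 differences kept its direction in every one of these fits, and in the samples with high and with low Xist taken separately. Since the mutant groups did not overlap in any of the 25, this was fixed in advance and is no test of them. The low Xist samples were 1 in each mutant group.

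**Figure D1:**
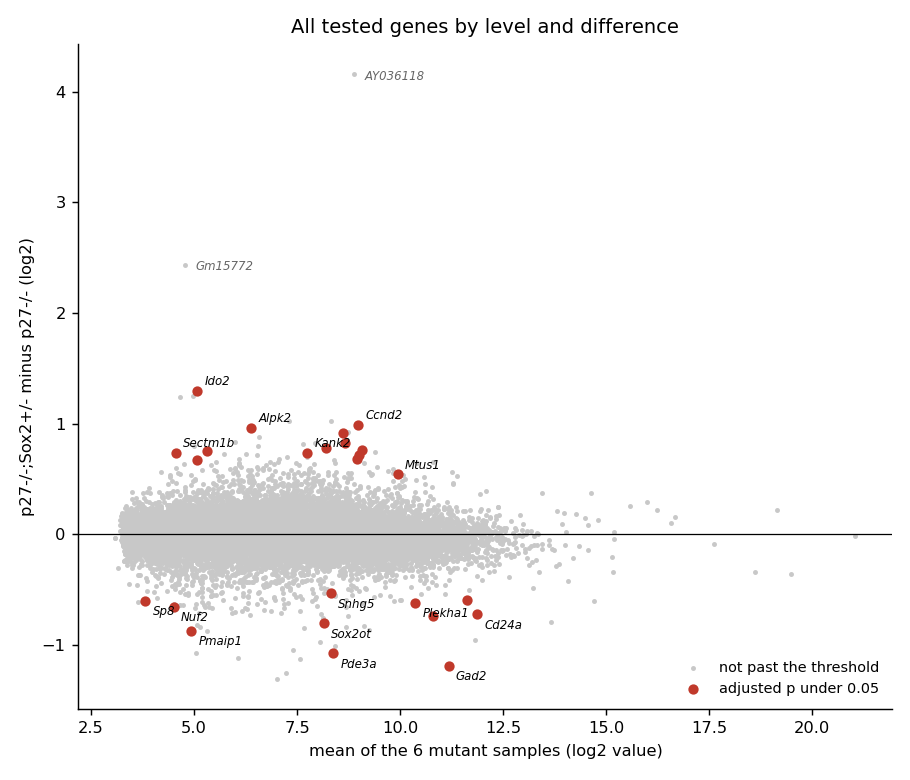
Difference between p27-/-;Sox2+/- and p27-/- samples (log2, vertical axis) against the mean log2 value of the 6 mutant samples (horizontal axis) for the 17268 tested genes, with the 25 that had an adjusted p under 0.05 in red and 15 of them named. The red points lie at differences of at least 0.53 in size at both low and high levels, and the gray points farthest from 0, AY036118 and Gm15772, are genes in which samples of the same genotype differed.

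Sox2 (ENSMUSG00000074637, chromosome 3, 34649995 to 34652461 in GRCm38) itself did not pass the threshold. Its values were 7.07, 6.88 and 7.04 in p27-/-;Sox2+/-, 7.33, 7.45 and 7.08 in p27-/- and 7.34, 7.39, 7.75 and 7.34 in WT samples (log2 difference -0.29, 95% confidence interval -0.59 to 0.01, adjusted p = 0.791). The 3 compound mutants lay below the 3 p27-/- samples, p27-/- replicate 3 being almost level with p27-/-;Sox2+/- replicate 1. Sox2ot (ENSMUSG00000105265, chromosome 3, 34560381 to 34677993), the long non-coding RNA whose gene contains Sox2, fell from 8.34, 8.60 and 8.72 to 7.77, 7.92 and 7.57, with 8.74, 8.51, 8.99 and 8.66 in WT (log2 difference -0.80, SE 0.14, adjusted p = 0.0435). Since reads were counted without strand and the genes overlap, the levels of both are uncertain, and a level cannot be read as a number of alleles. Within 2 Mb of Sox2 on chromosome 3, 27 genes were tested, with a median difference of 0.00, of which 13 were lower and 14 higher and 1, Sox2ot, passed. Gm20515 (ENSMUSG00000092242, chromosome 3, 34427371 to 34438840), a long non-coding RNA gene before both of them on the chromosome, was at 4.99, 5.18 and 4.90 against 5.29, 5.80 and 5.96 and 6.02, 5.85, 5.98 and 5.89 in WT (log2 difference -0.66, 95% confidence interval -1.0 to -0.32, adjusted p = 0.191), with no overlap between the groups. The cyclin A2 gene Ccna2, 1912 kb beyond Sox2, was at 6.44, 6.07 and 6.46 against 6.79, 6.63 and 7.30 (log2 difference -0.58, 95% confidence interval -1.02 to -0.15, adjusted p = 0.503). Of 13 tested genes in the list of SOX factors, which includes Sox2ot, 7 were higher and 6 lower, and no SOX gene passed. Sox9, a marker of pituitary stem cells, was at 8.57, 8.25 and 8.36 against 8.35, 8.23 and 8.32 (log2 difference 0.09, 95% confidence interval -0.15 to 0.33, adjusted p = 0.985), and Sox11 at 9.94, 10.02 and 10.02 against 10.23, 10.13 and 10.24 (log2 difference -0.21, 95% confidence interval -0.51 to 0.09, adjusted p = 0.927). The 8 tested markers of pituitary stem cells had a median of 0.09, with 6 higher and 2 lower and none past the threshold. The 7 melanotroph markers had a median of -0.04, with 2 higher and 5 lower. In the wider list of 33 stem cell and epithelial genes 17 were higher and 16 lower, and none passed. Cdh1, E-cadherin, was at 7.92, 7.73 and 7.68 against 7.73, 7.58 and 7.26 (log2 difference 0.25, 95% confidence interval -0.02 to 0.53, adjusted p = 0.826).

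**Figure D2:**
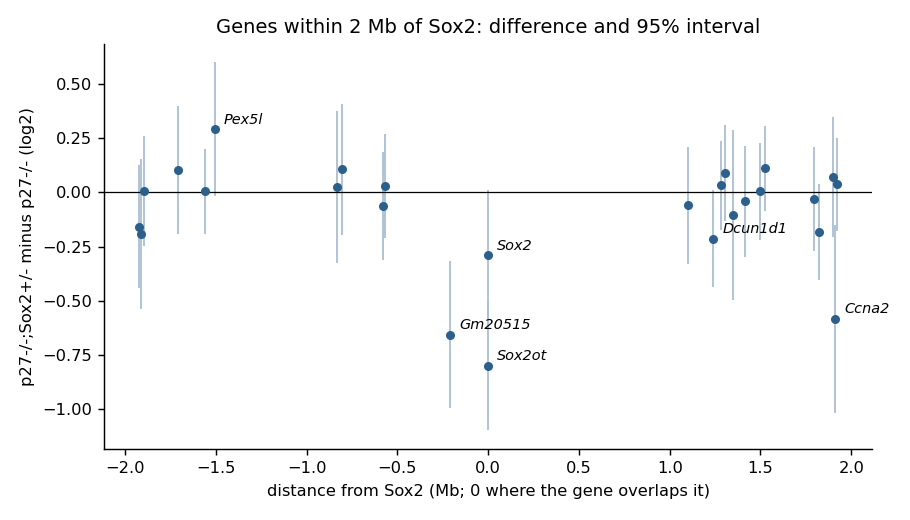
Log2 difference between p27-/-;Sox2+/- and p27-/- samples with its 95% confidence interval (vertical axis) for 26 of the 27 tested genes within 2 Mb of Sox2, by distance from it (horizontal axis, in Mb, negative towards the start of the chromosome). Sox2ot at -0.80 and Gm20515 at -0.66 lie lowest, at and near Sox2, and the intervals of Sox2 and of most neighbors include 0.

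Among the 14 genes that rose were Lsamp, Flrt3 and Cntnap2, which belong to the list of cell adhesion and guidance genes. Lsamp (ENSMUSG00000061080, chromosome 16, 39984254 to 42181679) encodes a member of the IgLON family of adhesion molecules that are tethered to the membrane by a lipid. Its values were 9.13, 9.08 and 8.99 in p27-/-;Sox2+/- samples, 8.31, 8.12 and 8.03 in p27-/- samples and 9.27, 8.81, 8.99 and 9.12 in WT samples (log2 difference 0.91, SE 0.12, adjusted p = 0.0163). The 2 mutant groups did not overlap, and the compound mutants lay within the range of WT. Flrt3 (ENSMUSG00000051379, chromosome 2, 140658198 to 140671476), a leucine-rich repeat protein that binds latrophilins and UNC5 receptors, was at 9.14, 9.34 and 9.40 against 8.86, 8.50 and 8.49 in p27-/- samples (log2 difference 0.68, SE 0.12, adjusted p = 0.0435). WT samples lay between 8.57 and 8.72, below every p27-/-;Sox2+/- sample. Cntnap2 (ENSMUSG00000039419, chromosome 6, 45060061 to 47301393), a neurexin-like protein of neuronal contacts, was at 8.41, 8.52 and 8.85 against 7.90, 7.91 and 7.62 (log2 difference 0.78, SE 0.14, adjusted p = 0.048). All 3 compound mutants were above all p27-/- samples, with values in WT of 8.82, 8.81, 9.16 and 9.09. Cgnl1 and Kank2 encode proteins that connect epithelial junctions and integrin adhesions to the cytoskeleton, and Plxdc2 encodes a transmembrane protein with a plexin repeat. Cgnl1 was at 8.89, 9.13 and 9.18 against 8.30, 8.24 and 8.19 (log2 difference 0.82, SE 0.13, adjusted p = 0.0307), Kank2 at 8.22, 7.98 and 8.14 against 7.45, 7.36 and 7.31 (log2 difference 0.74, SE 0.13, adjusted p = 0.0435) and Plxdc2 at 9.54, 9.35 and 9.51 against 8.85, 8.65 and 8.62 (log2 difference 0.76, SE 0.14, adjusted p = 0.0491). Each of the 3 rose, with no overlap between the mutant groups. In WT, Cgnl1 was at 10.02, 9.61, 9.66 and 9.48, above every sample of both mutants. Kank2 was between 7.62 and 8.10 and Plxdc2 between 9.09 and 9.67 in WT, ranges that overlapped the compound mutants. Cd24a, the gene of a small glycoprotein on the surface of epithelial progenitors, fell, with values of 11.46, 11.40 and 11.67 against 12.25, 12.19 and 12.26 (log2 difference -0.72, SE 0.12, adjusted p = 0.0378). WT samples of Cd24a lay between 11.78 and 12.21, above every compound mutant and overlapping p27-/-.

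A list of 61 tested genes of cell adhesion and axon guidance had a median difference of 0.16, where the median over all tested genes was 0.00. Of its members 45 were higher and 16 lower in the compound mutant. Past the threshold were 3 members, all 3 higher (Lsamp, Flrt3 and Cntnap2), where the share over all tested genes was 0.0811%. Without adjustment 12 were higher and 0 lower at a p-value under 0.05, where the shares over all tested genes were 3.46% and 3.19%. Sema6d, a transmembrane semaphorin, was next in order of p and did not pass (log2 difference 0.37, 95% confidence interval 0.18 to 0.57, adjusted p = 0.19). In each sample, the mean of the list, centred on the 6 mutant samples, ran from 0.02 to 0.16 in p27-/-;Sox2+/- and from -0.13 to 0.01 in p27-/- samples, so that the lowest compound mutant stood only just above the highest p27-/- sample. p27-/-;Sox2+/- replicate 3, which had the most posterior lobe RNA, also had the highest mean. The list's median was 0.07 without that sample, 0.09 without p27-/- replicate 2, and 0.16 in a fit with the mean of the posterior lobe markers as a covariate.

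**Figure D3:**
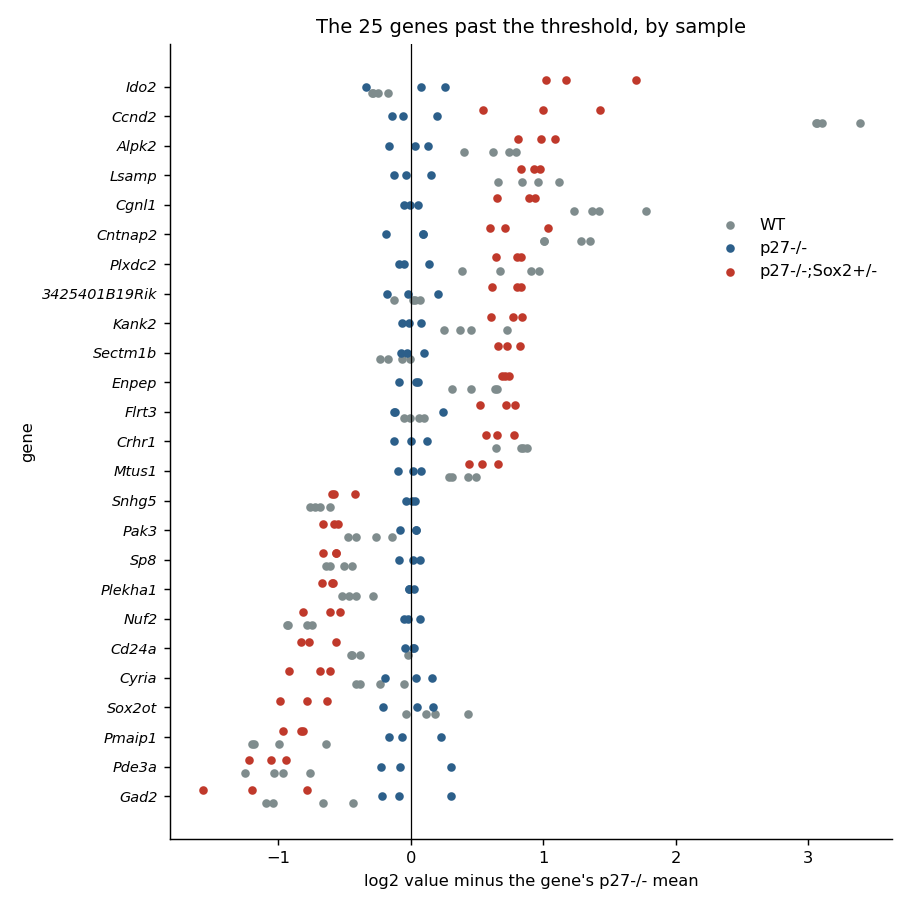
Log2 value of each of the 10 samples minus the gene's mean over the 3 p27-/- samples (horizontal axis) for the 25 genes past the threshold (vertical axis), with WT in gray, p27-/- in blue and p27-/-;Sox2+/- in red. The red and blue points of a gene never overlap, the WT points of Ido2, Sectm1b, Flrt3 and 3425401B19Rik lie near the blue ones, and those of Ccnd2 stand far above both.

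The gene with the largest difference of the 25 was Ido2 (ENSMUSG00000031549, chromosome 8, 24531892 to 24576414), an enzyme that opens the ring of tryptophan. It was at 5.60, 6.12 and 5.44 in p27-/-;Sox2+/- samples and 4.68, 4.09 and 4.50 in p27-/- samples, a 2.46-fold rise (log2 difference 1.30, SE 0.17, adjusted p = 0.0163). WT samples were between 4.13 and 4.25, also below every compound mutant. Sectm1b, which encodes a membrane protein of leukocytes and epithelia, had values of 4.91, 4.84 and 5.01 against 4.16, 4.29 and 4.11 (log2 difference 0.74, SE 0.10, adjusted p = 0.0163), and the uncharacterized gene 3425401B19Rik values of 5.54, 5.74 and 5.76 against 4.91, 5.14 and 4.75 (log2 difference 0.75, SE 0.13, adjusted p = 0.0435). For both, as for Ido2, WT samples lay below all 3 compound mutants. These are genes of low level, for which the deposited values may understate a change. Enpep, the membrane peptidase that trims angiotensin II, was at 9.40, 9.34 and 9.37 against 8.71, 8.69 and 8.57 (log2 difference 0.71, SE 0.10, adjusted p = 0.0188). Alpk2, an atypical kinase, and Mtus1, a protein that binds microtubules and the angiotensin type 2 receptor, also rose. Alpk2 was at 7.0, 6.89 and 6.72 against 5.94, 6.04 and 5.74 (log2 difference 0.96, SE 0.14, adjusted p = 0.0188) and Mtus1 at 10.11, 10.20 and 10.32 against 9.74, 9.68 and 9.57 (log2 difference 0.55, SE 0.09, adjusted p = 0.0435).

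Also past the threshold were Pde3a and Gad2, which fell, and Crhr1, which rose. Pde3a (ENSMUSG00000041741, chromosome 6, 141249269 to 141506862), a phosphodiesterase that breaks down cAMP, fell from 8.69, 8.84 and 9.22 in p27-/- samples to 7.70, 7.86 and 7.98 in p27-/-;Sox2+/- samples (log2 difference -1.07, SE 0.15, adjusted p = 0.0163). WT samples were at 7.95, 7.67, 8.16 and 7.89, a range that takes in the compound mutants. Crhr1, the receptor for corticotropin-releasing hormone, rose from 4.75, 4.87 and 4.62 to 5.31, 5.53 and 5.40 (log2 difference 0.67, SE 0.12, adjusted p = 0.0491). Gad2 (ENSMUSG00000026787, chromosome 2, 22621015 to 22693877), which makes the transmitter GABA from glutamate, fell 2.28-fold, from 11.68, 11.55 and 12.07 to 10.20, 10.98 and 10.57 (log2 difference -1.19, SE 0.20, adjusted p = 0.0435). The groups did not overlap, although the 3 compound mutants differed among themselves, and WT samples lay between them and p27-/- or within the compound mutants' range, at 11.33, 11.10, 10.67 and 10.73. Of 46 tested genes of cyclic nucleotide and calcium signaling only Pde3a passed, 24 were higher and 22 lower, and the median was 0.01. Next in order of p were Itpr1, the inositol trisphosphate receptor (log2 difference 0.52, 95% confidence interval 0.29 to 0.74, adjusted p = 0.105), and Rgs2, which switches off G proteins (log2 difference 0.59, 95% confidence interval 0.32 to 0.87, adjusted p = 0.134). Of 31 genes of melanotroph identity and POMC processing, Gad2 and Crhr1 passed, 17 were higher and 14 lower, with a median of 0.03. The share that passed in either direction was 0.145% over all tested genes. Among the melanotroph markers Oacyl had values of 14.44, 14.49 and 14.29 against 14.77, 15.07 and 15.18 (log2 difference -0.60, 95% confidence interval -0.85 to -0.34, adjusted p = 0.0986), and the prohormone convertase Pcsk2 values of 13.78, 13.92 and 13.90 against 14.10, 14.38 and 14.38 (log2 difference -0.42, 95% confidence interval -0.74 to -0.11, adjusted p = 0.512). The groups did not overlap for either gene, and neither passed the threshold. For Pomc itself the difference was -0.34, with a 95% confidence interval of -0.87 to 0.20 and an adjusted p of 0.945, and for Tbx19, Pax7 and the dopamine receptor Drd2 it was 0.08 (-0.11 to 0.28), -0.04 (-0.31 to 0.23) and 0.00 (-0.28 to 0.27), with adjusted p of 0.985, 0.996 and 0.999.

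Of the secretory machinery, 25 of 40 tested genes were lower and 15 higher, with a median of -0.05 and none past the threshold. At an unadjusted p under 0.05 were 7 lower and 1 higher, where the shares over all tested genes were 3.19% and 3.46%. The mean of the list was from -0.065 to -0.005 in p27-/-;Sox2+/- and from -0.002 to 0.061 in p27-/- samples, only just apart. The lowest p-values belonged to Syt5, a calcium sensor of dense-core vesicles (log2 difference -0.54, 95% confidence interval -0.81 to -0.28, adjusted p = 0.156), and Rab3b, a vesicle GTPase that was higher (log2 difference 0.44, 95% confidence interval 0.22 to 0.66, adjusted p = 0.167). Of 47 ion channel genes, 31 were higher and 16 lower, with a median of 0.09. None passed, and 12 against 1 were higher and lower at an unadjusted p under 0.05, where the shares over all tested genes were 3.46% and 3.19%. Kcnn3, a calcium-activated potassium channel, was at 9.19, 8.84 and 9.03 against 8.40, 8.56 and 8.42 (log2 difference 0.56, 95% confidence interval 0.25 to 0.87, adjusted p = 0.232), and Kcnd3, a voltage-gated potassium channel, at 8.37, 8.62 and 8.43 against 8.15, 8.06 and 8.12 (log2 difference 0.36, 95% confidence interval 0.14 to 0.59, adjusted p = 0.33). The mean of the ion channel list was from 0.06 to 0.07 in the compound mutants and from -0.10 to -0.04 in p27-/- samples. These groups were apart, with WT samples spread from -0.05 to 0.08.

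Of the lists, that of mitosis genes had the median farthest from 0. It was -0.37, and 51 of 52 tested members were lower in the compound mutant, while 6 more of the 58 listed genes were under the minimum level. For 30 the unadjusted p was under 0.05, all of them lower, 27 had all 3 compound mutants below all 3 p27-/- samples, and 1, Nuf2, fell past the threshold. Over all tested genes these shares in the lower direction were 3.19%, 7.75% and 0.0637%. Nuf2 (ENSMUSG00000026683, chromosome 1, 169497934 to 169531464), a subunit of the NDC80 complex that attaches kinetochores to microtubules, had values of 4.30, 4.02 and 4.22 against 4.90, 4.78 and 4.81 in p27-/- and 3.90, 4.09, 3.90 and 4.05 in WT samples (log2 difference -0.65, SE 0.11, adjusted p = 0.0378). Its mean level was low, at percentile 11.8 of the tested genes. Cenpf, a large kinetochore protein, was at 7.35, 6.66 and 6.99 against 8.08, 7.80 and 8.49, a 2.18-fold difference that did not pass (log2 difference -1.13, 95% confidence interval -1.65 to -0.61, adjusted p = 0.132). Hmmr, which organizes spindle poles, was at 5.71, 5.56 and 5.65 against 6.37, 6.11 and 6.56 (log2 difference -0.70, 95% confidence interval -1.02 to -0.39, adjusted p = 0.105), and Ube2c, which tags proteins for destruction at anaphase, at 4.77, 4.52 and 4.80 against 5.12, 5.20 and 5.78 (log2 difference -0.67, 95% confidence interval -1.01 to -0.33, adjusted p = 0.174). For Mki67, the proliferation marker, the values were 8.82, 8.44 and 8.89 against 9.47, 9.27 and 9.89, with 6.79, 8.12, 7.27 and 7.26 in WT (log2 difference -0.83, 95% confidence interval -1.38 to -0.28, adjusted p = 0.382). For each of these genes the mutant groups did not overlap. In Mki67, every compound mutant remained above every WT sample. Per sample, the mean of the list was from -0.29 to -0.14 in p27-/-;Sox2+/- and from 0.06 to 0.38 in p27-/- samples, and p27-/- replicate 3 stood highest. Without it the list's median was -0.27, and over all fits without 1 sample it was from -0.40 to -0.27.

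The median of 42 DNA replication genes was -0.08, with 33 lower and 9 higher and none past the threshold. The lowest p belonged to Tyms, which makes thymidylate, with values of 7.39, 7.28 and 7.03 against 7.67, 7.48 and 7.53 (log2 difference -0.32, 95% confidence interval -0.61 to -0.03, adjusted p = 0.651), and Mcm2, a subunit of the replicative helicase, was at 7.59, 7.62 and 7.54 against 7.85, 7.87 and 7.67 (log2 difference -0.21, 95% confidence interval -0.44 to 0.02, adjusted p = 0.821). The difference between the medians of the mitosis and replication lists was not tested. Among 27 cyclins, kinases, inhibitors and E2F factors, Ccnd2 (ENSMUSG00000000184, chromosome 6, 127125162 to 127152188), cyclin D2 of the G1 phase, was the only gene past the threshold. It rose from 8.43, 8.68 and 8.34 in p27-/- to 9.91, 9.48 and 9.03 in p27-/-;Sox2+/- samples (log2 difference 0.99, SE 0.18, adjusted p = 0.0485), and both mutants were far below WT, at 11.55, 11.87, 11.59 and 11.54. Its compound mutants were farther apart than its p27-/- samples, and the difference was between 0.77 and 1.21 with a sample left out. Ccnd1, cyclin D1, was at 8.46, 8.02 and 8.12 against 7.64, 8.01 and 7.43, with 9.40, 9.97, 9.35 and 9.77 in WT (log2 difference 0.51, 95% confidence interval 0.12 to 0.90, adjusted p = 0.529), and their partner Cdk6 at 10.68, 10.46 and 10.13 against 10.81, 10.71 and 11.0 (log2 difference -0.41, 95% confidence interval -0.69 to -0.14, adjusted p = 0.393). Pmaip1, which encodes the BCL2 family member NOXA and promotes cell death, fell from 5.30, 5.59 and 5.20 to 4.39, 4.53 and 4.54 (log2 difference -0.87, SE 0.15, adjusted p = 0.0435) and was the only one of 38 genes among p53 targets and the BCL2 family to pass. These 38 divided into 19 higher and 19 lower. The share that passed in either direction was 0.145% over all tested genes. Bcl2, which opposes cell death, was at 8.77, 8.81 and 8.77 against 8.35, 8.43 and 8.45 (log2 difference 0.37, 95% confidence interval 0.17 to 0.58, adjusted p = 0.232).

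**Figure D4:**
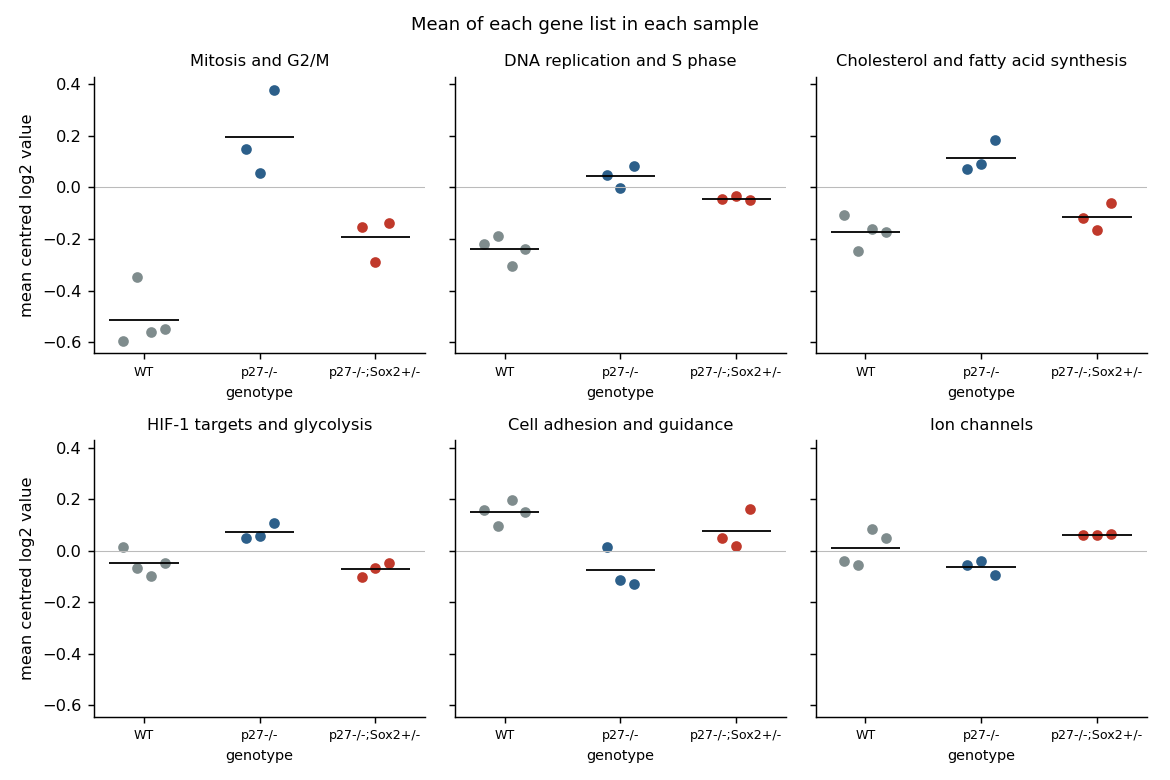
Mean log2 value of 6 gene lists in each of the 10 samples (points, vertical axis), each gene centred on its mean over the 6 mutant samples, by genotype (horizontal axis), with the group mean as a line. The p27-/-;Sox2+/- points do not overlap the p27-/- points in any of the 6 lists, only narrowly so for adhesion, and for mitosis and replication they lie above the WT points.

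The promoters of the mitosis list were examined for sequence features already known for such genes. Mitotic genes are known to be held silent in resting cells through an element named CHR, with the letters TTTGAA, often with CCAAT boxes next to it. Both were searched on both strands in the 300 bases from 250 before to 50 after each gene's start in RefSeq (GRCm38.p6), and matches of the 2 can share at most 1 base. CHR was found in 31 of the 44 mitosis promoters that the reference holds (70.5%), against 12% of the promoters of tested genes and 18.1% of all promoters. CHR and CCAAT occurred together in 59.1% of the mitosis promoters and in 4.95% of those of tested genes. Among the 33 promoters of replication genes, CHR was found in 12.1%. These shares count all members with a promoter, whatever their difference between the mutants. They describe the lists and not the comparison. The promoters of the kinetochore gene Cenpf and the spindle gene Hmmr are shown because these genes had among the lowest p-values of the list, with CHR and CCAAT in capitals on either strand, 5′ to 3′. No match was found for Nuf2.
Cenpf (chr1:189688037-189688336, minus strand): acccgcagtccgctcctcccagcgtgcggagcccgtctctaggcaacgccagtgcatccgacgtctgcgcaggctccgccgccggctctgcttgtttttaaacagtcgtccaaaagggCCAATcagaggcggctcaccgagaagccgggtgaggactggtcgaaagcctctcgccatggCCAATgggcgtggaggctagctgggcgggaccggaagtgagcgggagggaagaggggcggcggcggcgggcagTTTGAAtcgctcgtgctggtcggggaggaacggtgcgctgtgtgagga
Hmmr (chr11:40733388-40733687, minus strand): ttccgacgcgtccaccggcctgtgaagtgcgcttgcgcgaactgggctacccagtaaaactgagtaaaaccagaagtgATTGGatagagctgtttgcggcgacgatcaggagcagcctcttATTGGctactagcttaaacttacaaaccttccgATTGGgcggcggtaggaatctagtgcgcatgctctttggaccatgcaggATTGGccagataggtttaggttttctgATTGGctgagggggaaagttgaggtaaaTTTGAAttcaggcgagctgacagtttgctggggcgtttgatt
A match is a description of letters and not a site. Of the 25 genes past the threshold, 16 had a promoter in the reference. The core letters that SOX proteins bind, CATTGT, were found in 0 of these and in 7.09% of the promoters of tested genes. With only 16 promoters, and 300 bases searched in each, this cannot show a lack of such letters.

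Of 30 tested genes of cholesterol and fatty acid synthesis, 26 were lower and 4 higher in the compound mutant, with a median of -0.21 and none past the threshold. Without adjustment 15 were lower and 1 higher at a p under 0.05, where the shares over all tested genes were 3.19% and 3.46%. Hmgcs1, which makes HMG-CoA early in cholesterol synthesis, was at 8.42, 8.52 and 8.76 against 9.12, 8.87 and 9.23 (log2 difference -0.51, 95% confidence interval -0.76 to -0.26, adjusted p = 0.167), Idi1, which isomerizes the isoprene unit, at 7.34, 7.63 and 7.99 against 8.30, 8.22 and 8.38 (log2 difference -0.64, 95% confidence interval -0.96 to -0.32, adjusted p = 0.167) and Msmo1, a late demethylation enzyme, at 7.95, 8.01 and 8.31 against 8.58, 8.53 and 8.76 (log2 difference -0.53, 95% confidence interval -0.79 to -0.27, adjusted p = 0.164). All 3, which are among the members with the lowest p, had every compound mutant below every p27-/- sample. Of the 30 members 14 lay wholly below and 1 wholly above, where the shares over all tested genes were 7.75% and 7.51%. The mean of the list was from -0.17 to -0.06 in p27-/-;Sox2+/-, from 0.07 to 0.18 in p27-/- and from -0.25 to -0.11 in WT samples, and its median remained from -0.26 to -0.17 with a sample left out. CCAAT boxes were found in 16 of 21 of the promoters in the reference (76.2%), against 38.6% of those of tested genes. This share, too, counts members whatever their difference and describes the list alone. A form of the sterol regulatory element, TCACNCCAC, was found in 1 of them, that of Hmgcs1, and in 1.09% of tested genes. That promoter is shown for this reason, with both motifs in capitals.
Hmgcs1 (chr13:119690101-119690400, plus strand): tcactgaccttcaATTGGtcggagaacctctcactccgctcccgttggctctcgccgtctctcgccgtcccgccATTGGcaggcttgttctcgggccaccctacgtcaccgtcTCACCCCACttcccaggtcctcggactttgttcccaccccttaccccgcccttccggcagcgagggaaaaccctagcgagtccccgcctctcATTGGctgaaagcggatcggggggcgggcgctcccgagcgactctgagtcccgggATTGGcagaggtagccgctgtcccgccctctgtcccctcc

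Genes that HIF-1, the hypoxia-inducible factor, turns on and those of glycolysis were also mostly lower, 34 of 42, with a median of -0.17 and none past the threshold. At an unadjusted p under 0.05 were 12 lower and 2 higher genes, where the shares over all tested genes were 3.19% and 3.46%. P4ha1, a collagen prolyl hydroxylase, was at 9.51, 9.73 and 9.40 against 10.04, 10.08 and 10.32 (log2 difference -0.60, 95% confidence interval -0.87 to -0.33, adjusted p = 0.105). Ldha, lactate dehydrogenase, was at 10.37, 10.37 and 10.54 against 10.99, 10.68 and 11.06 (log2 difference -0.48, 95% confidence interval -0.79 to -0.17, adjusted p = 0.353), and Pfkfb3, an activator of glycolysis, at 6.15, 5.95 and 6.08 against 6.47, 6.36 and 6.65 (log2 difference -0.43, 95% confidence interval -0.69 to -0.17, adjusted p = 0.312). For these 3 genes, which are among the members with the lowest p, the groups did not overlap and the compound mutants were lower. Of the 42 members 11 lay wholly below and 4 wholly above, where the shares over all tested genes were 7.75% and 7.51%. Epas1, which encodes the related factor HIF-2 alpha, was higher in every compound mutant, with values of 9.46, 9.28 and 9.84 against 9.06, 8.87 and 8.95 (log2 difference 0.56, 95% confidence interval 0.22 to 0.91, adjusted p = 0.302). The mean of the list was from -0.10 to -0.05 in p27-/-;Sox2+/- and from 0.05 to 0.11 in p27-/- samples. The core of the hypoxia response element, ACGTG, was found in 50% of 34 promoters of the list and in 24.8% of those of tested genes. The list was drawn up as HIF-1 targets, and members count whatever their difference, so this describes the list alone. The promoter of P4ha1, the member with the lowest p, is shown with the match in capitals.
P4ha1 (chr10:59323046-59323345, plus strand): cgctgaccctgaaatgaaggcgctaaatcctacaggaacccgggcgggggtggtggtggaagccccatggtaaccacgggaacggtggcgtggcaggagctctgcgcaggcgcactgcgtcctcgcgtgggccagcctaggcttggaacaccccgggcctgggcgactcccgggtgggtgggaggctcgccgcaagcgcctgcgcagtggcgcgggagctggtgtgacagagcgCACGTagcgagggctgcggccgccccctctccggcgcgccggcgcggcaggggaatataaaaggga

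**Figure D5:**
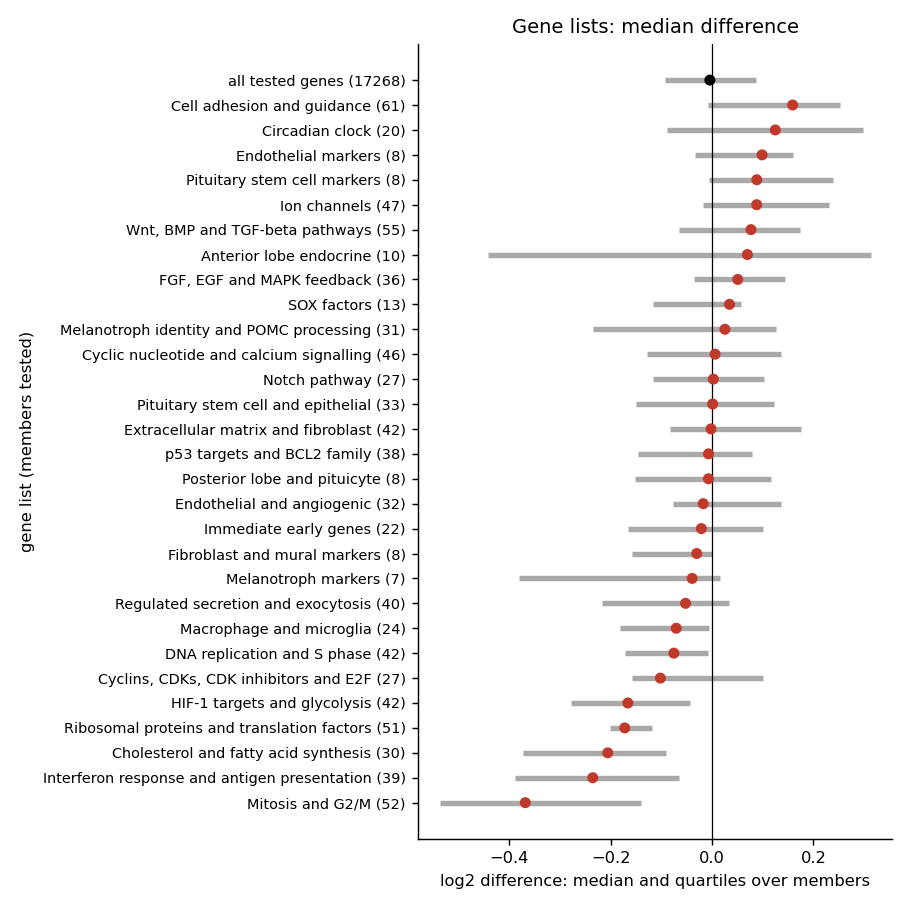
Median (points) and quartiles (bars) of the log2 difference between p27-/-;Sox2+/- and p27-/- samples (horizontal axis) over the tested members of the gene lists shown (vertical axis, number of members in brackets), with all tested genes in black at the top. The mitosis list lies lowest, at -0.37, and the adhesion list highest, at 0.16. The quartiles of the mitosis, interferon, cholesterol, ribosomal, HIF-1, replication and macrophage lists lie below 0, and so, only just, do those of the fibroblast and mural list.

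The other genes that fell were Pak3, Cyria, Plekha1, Sp8 and Snhg5. Pak3, a kinase activated by RAC and CDC42, and Cyria, which binds RAC1 and limits actin branching, both fell. Pak3 was at 11.26, 11.34 and 11.37 against 11.83, 11.96 and 11.96 (log2 difference -0.60, SE 0.10, adjusted p = 0.0378) and Cyria at 10.55, 10.48 and 10.24 against 11.20, 10.96 and 11.32 (log2 difference -0.73, SE 0.12, adjusted p = 0.042). Plekha1 (ENSMUSG00000040268, chromosome 7, 130860551 to 130913494), which binds a phosphoinositide at the membrane, was at 10.01, 10.09 and 10.08 against 10.66, 10.71 and 10.66 (log2 difference -0.62, SE 0.08, adjusted p = 0.0163), with a spread within each group far below the difference. Sp8, a zinc finger transcription factor of the developing limb and brain, was at 3.45, 3.55 and 3.56 against 4.19, 4.13 and 4.03 (log2 difference -0.60, SE 0.09, adjusted p = 0.02). Its mean level was at percentile 5.0 of the tested genes, near the minimum of 3.32 for testing. Snhg5, a host gene of small nucleolar RNAs, was at 8.0, 7.99 and 8.16 against 8.61, 8.54 and 8.59 (log2 difference -0.53, SE 0.10, adjusted p = 0.0492). In WT, Plekha1, Sp8 and Snhg5 were at 10.27, 10.21, 10.16 and 10.39, at 3.51, 3.68, 3.61 and 3.47 and at 7.89, 7.86, 7.82 and 7.97. Pak3 was at 11.77, 11.66, 11.45 and 11.51 in WT, and Cyria at 11.11, 10.93, 10.75 and 10.78. For Pak3, Cyria and Plekha1 every compound mutant lay below every WT sample, and for Cyria the p27-/- samples overlapped WT.

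In 2 further lists most members were lower while the samples did not separate. Of 51 ribosomal protein and translation factor genes, 50 were lower, with a median of -0.17 and none past the threshold. The list's mean was -0.22, -0.06 and 0.03 in p27-/-;Sox2+/- samples and 0.14, 0.11 and -0.01 in p27-/- samples, so that the groups overlapped. Rplp1, a protein of the ribosomal stalk, was at 10.43, 10.72 and 10.66 against 10.96, 11.06 and 10.87 (log2 difference -0.36, 95% confidence interval -0.71 to -0.01, adjusted p = 0.713). Of 39 genes of the interferon response and antigen presentation, 32 were lower, with a median of -0.24, while the 2 that passed, Ido2 and Sectm1b, rose. The share that passed in the higher direction was 0.0811% over all tested genes. The mean of this list was from -0.14 to 0.02 in the compound mutants and from -0.10 to 0.38 in p27-/- samples, where replicate 3 stood above the rest. Without that sample the median was -0.10.

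In the lists of signaling between cells, of immediate early genes, of vessels and matrix and of the clock, no member passed the threshold. In the Notch list 14 of 27 genes were higher and 13 lower (median 0.00). The lowest p-values were those of Maml2, a co-activator of Notch (log2 difference 0.47, 95% confidence interval 0.20 to 0.74, adjusted p = 0.255), and Heyl, a Notch target (log2 difference 0.53, 95% confidence interval 0.21 to 0.84, adjusted p = 0.284), both higher without overlap. In the Wnt, BMP and TGF-beta list 35 of 55 were higher and 20 lower (median 0.08). Id2 and Id1, BMP targets that hold back differentiation, had differences of -0.53 (95% confidence interval -0.82 to -0.23, adjusted p = 0.241) and -0.39 (-0.68 to -0.09, adjusted p = 0.517), and Fzd8, a Wnt receptor, of 0.41 (0.15 to 0.67, adjusted p = 0.354). In the FGF, EGF and MAPK list 22 of 36 were higher and 14 lower (median 0.05). Fgf1, a growth factor, was at 9.60, 9.52 and 9.59 against 9.10, 9.22 and 8.78 (log2 difference 0.54, 95% confidence interval 0.24 to 0.84, adjusted p = 0.247), and Etv5, a transcription factor that the MAPK pathway induces, at 8.24, 8.11 and 8.07 against 8.39, 8.89 and 8.83 (log2 difference -0.56, 95% confidence interval -0.91 to -0.21, adjusted p = 0.333). Of 22 immediate early genes, 10 were higher and 12 lower (median -0.02), and Fos was at 5.92, 5.49 and 5.29 against 5.95, 5.51 and 6.61, with overlap (log2 difference -0.46, 95% confidence interval -1.02 to 0.10, adjusted p = 0.861). Among endothelial and angiogenic genes (median -0.02, 14 higher and 18 lower of 32), Angpt2, a vessel destabilizing ligand, was at 7.57, 7.69 and 7.60 against 8.01, 8.21 and 8.14 (log2 difference -0.50, 95% confidence interval -0.72 to -0.27, adjusted p = 0.116), and Cdh5, the endothelial cadherin, at 6.66, 6.56 and 6.83 against 6.30, 6.01 and 6.26 (log2 difference 0.49, 95% confidence interval 0.22 to 0.76, adjusted p = 0.23). In the extracellular matrix list (median 0.00) 20 of 42 were higher and 22 lower, and in the circadian clock list (median 0.12) 13 of 20 were higher and 7 lower, the lowest p being that of Nfil3, a repressor of the clock output (log2 difference -0.39, 95% confidence interval -0.66 to -0.12, adjusted p = 0.429).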

How the data were processed

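RNA of the dissected IL was extracted with RNeasy Micro columns, amplified with the Ovation RNA-seq V2 kit and sequenced on a HiSeq4000, per the labels and the study's methods. The authors aligned reads with STAR 2.5.2a, counted them without strand with RSEM 1.3.30 against Ensembl annotation of GRCm38 and normalized them with DESeq2 1.18.1. They deposited 1 table of log2 values for 10 samples (29527 genes, from -1.89 to 21.5, with sample means from 4.345 to 4.367). The transformation is not named in the sources used here. If it shrinks low values, changes of weakly expressed genes are understated. The table does not show read depth, so precision can be judged only from the replicates.

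The 17268 genes with a mean log2 value of 3.32 or more, which is 10 without the log, were fitted with limma 3.58.1 in R 4.3.3, with all 3 genotypes in the fit (4 WT, 3 p27-/- and 3 p27-/-;Sox2+/- samples), a trend of the variance with the mean, and p-values adjusted after Benjamini and Hochberg (threshold 0.05). All differences are p27-/-;Sox2+/- minus p27-/- on the log2 scale, and intervals are 95% confidence intervals of that fit. Every gene past the threshold is described, with the members of each gene list that had the lowest p-values and the largest differences without overlap between the groups. The comparison, gene lists (33 lists, 995 symbols, 920 tested, 61 under the minimum and 14 without a match) and rules were chosen with earlier results of these data known, so counts over lists are descriptions. A few listed genes and 1 list are not reported here. Gene symbols came from a table of IDs for 22709 genes and from ID and symbol pairs in the study's supplement for 356. Positions, matched by symbol, and promoters are from RefSeq (GRCm38.p6), and 11221 tested genes had a promoter there. Tables and figures were made with Python 3.11.15, numpy 2.4.6, pandas 2.3.3 and matplotlib 3.10.9.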

Additional observations from a re-analysis of the deposited data

Results flagged for a closer look

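Among 32 measures of the WT group, those of the 25 genes past the threshold and of genes used to check the samples, 3 had 1 WT sample far from the other 3, where about 1.6 would be so by chance. In the fit, WT samples do not enter the difference between the mutants. They bear on its p-value through the shared estimate of the spread. They also bear on which genes were tested, since the minimum level is a mean over all 10 samples. Cd24a was at 12.21 in WT replicate 1 and between 11.78 and 11.85 in the others. Ccnd2 was at 11.87 in WT replicate 2 and between 11.54 and 11.59 in the others. Sox2 was at 7.75 in WT replicate 3 and between 7.34 and 7.39 in the others. About 1 group in 20 would show this by chance, and the cause was not tested.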

How the results depend on the processing

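The number of genes past the threshold, 25 (14 higher and 11 lower), depended on the processing. It was 6 (4 and 2) with no minimum level, 45 (25 and 20) with only the mutant genotypes in the fit, 8 (6 and 2) without the mean-variance trend, 283 (147 and 136) with sample weights, which gave p27-/-;Sox2+/- replicate 2 a weight of 3.46, and 15 (8 and 7) after quantile normalization. With a minimum of 50 on the linear scale it was 17, of which 7 were lower. With robust variances, median centring, Xist or the posterior lobe mean as a covariate it was 26, 23, 27 and 23. Leaving out each sample in turn gave from 0 to 41 genes, from 0 to 22 higher and from 0 to 19 lower. With a replicate block, limma found 0 genes, 0 higher and 0 lower, with 1049 at an unadjusted p under 0.05. Deviations of samples with the same number in the mutant groups correlated at -0.186, 0 and -0.09, so the numbers give no pairing. Among the named genes no difference that passed turned its direction in any alternative, and 246 of their alternative values no longer passed while 55 newly did. The medians of the mitosis, cholesterol, HIF-1, adhesion, ion channel, ribosomal and interferon lists kept their sign in all 21 alternatives. The causes were not tested. The table holds no depth, so counting error could not be judged.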

Other observations

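A difference of over 1 on the log2 scale without passing the threshold was found in 13 genes, and in the leading pair of them samples of the same genotype disagreed. AY036118, the gene with the largest difference, was at 13.05, 13.16 and 6.63 in p27-/-;Sox2+/- samples, at 6.76, 6.72 and 6.89 in p27-/- samples and at 15.55, 13.07, 7.06 and 13.89 in WT samples (adjusted p = 0.694, limma), so that p27-/-;Sox2+/- replicate 3 and WT replicate 3 were at the level of p27-/-. Gm15772 was at 3.55, 3.43 and 11.0 in p27-/-;Sox2+/- samples and between 3.47 and 3.81 in the other 7 samples, a single sample standing high (adjusted p = 0.854, limma). Both were chosen after their values were seen.

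Among genes without overlap between the groups that did not pass, the lowest differences were those of C3, the central complement protein, at 6.10, 6.39 and 6.60 in p27-/-;Sox2+/- against 7.90, 7.40 and 7.69 in p27-/- samples (log2 difference -1.30, 95% confidence interval -2.06 to -0.55, adjusted p = 0.27), Pttg1, securin, at 7.56, 6.07 and 6.19 against 7.87, 7.71 and 7.98 (log2 difference -1.25, 95% confidence interval -2.40 to -0.09, adjusted p = 0.681), Cenpf, given above, Gal, the neuropeptide galanin, at 4.51, 4.56 and 4.49 against 5.03, 6.25 and 5.48 (log2 difference -1.07, 95% confidence interval -1.74 to -0.40, adjusted p = 0.333), and Gm10184 (-1.04, adjusted p = 0.324). Among the highest were those of Gm9923 (1.24, adjusted p = 0.214), Lypd1, a regulator of nicotinic receptors, at 7.61, 7.96 and 7.89 against 6.70, 6.90 and 6.79 (log2 difference 1.02, 95% confidence interval 0.53 to 1.52, adjusted p = 0.156), Ddit4l (0.93, adjusted p = 0.371) and Cpne7 (0.92, adjusted p = 0.379). The p27-/-;Sox2+/- samples of C3 and of Gal also lay below every WT sample.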
